A study of Mus musculus with 6 samples.

Results

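Polyamine metabolism was followed here through 10 genes, Odc1, Azin1, Oaz1, Oaz2, Amd1, Srm, Sms, Sat1, Smox and Paox, found by their symbols among the 49492 genes of a mouse count table. RNA-seq had been done on HL-1, a cardiac line that goes back to atrial muscle cells of a mouse, and all 6 libraries come from cells given palmitic acid, the saturated fat given to cells to model lipid overload. 3 libraries are labelled vector and 3 are from cells overexpressing ZNF593-AS, a human long noncoding RNA, with no dose, time or means of delivery in the labels and no library without palmitic acid among them. By title the 3 treated libraries are alike ZNF593-AS, whereas their treatment fields name ZNF593-AS, ZNF594-AS and ZNF595-AS in turn, and the libraries were grouped by title. The 10 genes were proposed with the values of this one comparison, ZNF593-AS against vector, already known. Their differences between the groups are therefore given as a description. Whether a gene passes the call rule used for the whole table is stated as part of that description, and no p-value of these genes is read as evidence.

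Polyamines are small, positively charged molecules that bind nucleic acids and are needed for translation and cell growth. Putrescine is made from ornithine by ornithine decarboxylase, and spermidine and spermine are built from it by adding aminopropyl groups taken from decarboxylated S-adenosylmethionine. The level is held by a feedback loop: antizymes bind ornithine decarboxylase and send it to the proteasome, and the antizyme inhibitor, an inactive relative of the enzyme, draws the antizymes away. Breakdown runs through acetylation by the enzyme of Sat1 and oxidation by those of Smox and Paox. In heart muscle, raised ornithine decarboxylase activity is known from hypertrophic growth.

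Antizyme translation depends on a signal in the messenger RNA. The ribosome reaches an in-frame stop codon, and polyamines favour a shift of the reading frame by 1 base that lets it read on. The site and the bases around it are shown because they mark the sensor of the pathway and because a copy of the gene carries the same letters. They are exon sequence from the GENCODE M21 transcripts of GRCm38, read 5′ to 3′ on the gene's strand, and the capitals mark the shift site of 7 bases, which holds the stop codon TGA.
Oaz1: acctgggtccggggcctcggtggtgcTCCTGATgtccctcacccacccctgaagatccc
Oaz2: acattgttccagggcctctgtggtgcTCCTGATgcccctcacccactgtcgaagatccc
Oaz1-ps: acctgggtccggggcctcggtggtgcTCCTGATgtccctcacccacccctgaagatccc
The capitals lie at chr10:80828292-80828298 in Oaz1, at chr9:65686269-65686275 in Oaz2 and at chr17:17345933-17345939, on the minus strand, in the processed pseudogene Oaz1-ps. Oaz2 differed from Oaz1 at 10 of the 59 bases and in none of the capitals. Oaz1-ps differed at 0 of 59, and over its 685 bases it was 99.3% identical to an Oaz1 transcript, with a longest identical run of 480 bases.

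Odc1 has intronless copies of the same kind. The most abundant was Gm7993 on chromosome 5, 95.5% identical to the 1386 coding bases of Odc1, with 11 identical runs of 50 bases or more. A stretch of 60 bases with an average share of mismatches is shown, coding bases 235 to 294 of Odc1 (chr12:17547765-17547967 on the plus strand, across an intron) against chr5:95974475-95974534 of the copy, with the 3 mismatches in capitals.
Odc1: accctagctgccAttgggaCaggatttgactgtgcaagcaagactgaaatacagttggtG
Gm7993: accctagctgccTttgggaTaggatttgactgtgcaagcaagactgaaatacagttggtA
How the authors' counting placed reads that match a gene and its copy is not given in the sources used here, so the values of Odc1, Oaz1, Amd1 and Paox are given below both alone and summed with their copies.

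Gene counts summed to between 51470457 and 84547615 per library. Whether a replicate is a culture of its own is not stated, so spreads and p-values measure only the differences between these libraries, which may be technical. Levels are given as CPM, counts per 1000000 of library size scaled by TMM factors, which set the bulk of genes equal between libraries. A gene was called when edgeR's quasi-likelihood test gave an adjusted p under 0.05 over 16473 tested genes. The markers went largely against the labelled cell type: of 14 markers of atrial and cardiac myocytes 10 were under 1 CPM. Nppa, Sln and Kcna5 had no count in any library, and Myh6 was at 0.108, Tnni3 at 0.0559, Actc1 at 0.0451 and Myl7 at 0.00381 CPM on average. Des stood at 530 ± 60.4, Tnnt2 at 93.3 ± 8.02, Gata4 at 9.39 ± 0.654 and Myl4 at 1.36 ± 0.177 CPM (SD, n = 6). Among markers of other cells, Col3a1 at 169 ± 26.1 and Acta2 at 165 ± 37.6 CPM (SD, n = 6) were the highest. Low genes were found there too: Dcn, Lum and Tcf21 for fibroblasts and Cnn1 and Rgs5 for smooth muscle averaged under 1 CPM. The same held for Adgre1, Ptprc and Lyz2 for macrophages and for every endothelial gene. The summed markers lay at 540 to 616 CPM with vector and 650 to 713 CPM with ZNF593-AS for myocytes, at 259 to 274 and 192 to 237 for 7 fibroblast genes, at 173 to 200 and 204 to 290 for 6 smooth muscle and pericyte genes, at 10.2 to 12.9 and 12.9 to 13.7 for 6 macrophage genes, and at 0.83 to 1.38 and 0.953 to 1.64 for 5 endothelial genes. Des, Col3a1 and Acta2 made up most of the myocyte, fibroblast and smooth muscle sums, so each sum mainly follows a single gene. Of all the listed markers Des, Pdgfra and Cd68 were called higher and Col1a1 and Col3a1 lower. Their part in the polyamine values was not tested. In bulk RNA, fewer cells of a type and less RNA per cell cannot be told apart.

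All 10 genes passed the filter on low counts. The lowest count of any of them was 160, for Paox in vector replicate 1. Under the call rule Odc1 was higher and Sat1 lower with ZNF593-AS, and the other 8 were not called. Of all tested genes, 8.40% were called, 2.23% higher and 6.16% lower. In 6 of the 10 genes the groups did not overlap, against 25.8% of all tested genes. Nothing is read from these counts, since the genes were proposed from this comparison. The differences were small: the largest was 0.27 on the log2 scale, the median of their sizes was 0.13 against 0.12 over all tested genes, and the median log2 fold change was 0.02 against 0.009.

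**Figure D1:**
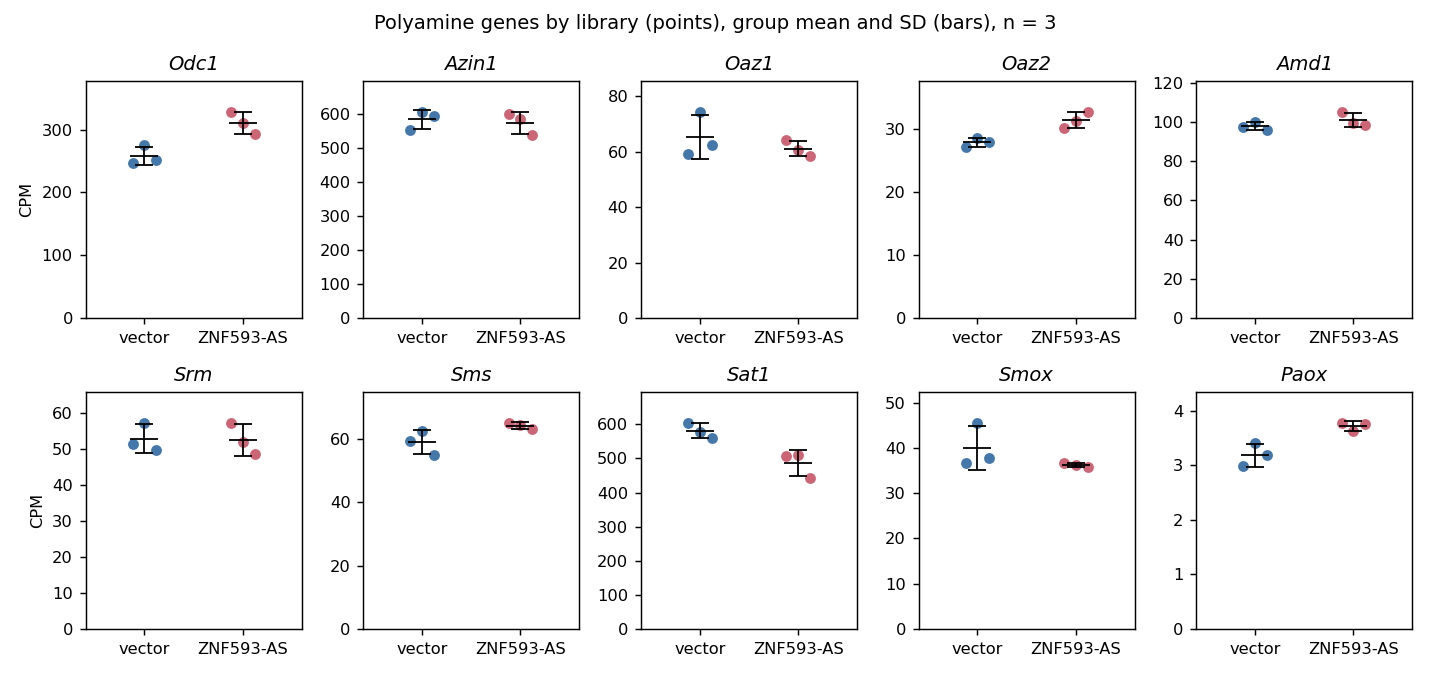
Level in CPM (vertical axes from 0) of the 10 polyamine genes in each library of the vector and ZNF593-AS groups, with the group mean and SD as bars. Odc1 lies higher and Sat1 lower in the 3 ZNF593-AS libraries, while the groups overlap in Azin1, Oaz1, Amd1 and Srm.

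Odc1 (chr12:17544873-17551502, GRCm38, plus strand) encodes ornithine decarboxylase, the rate-limiting enzyme of the pathway. Its level in replicates 1 to 3 was 247, 275 and 252 CPM with vector and 328, 311 and 293 CPM with ZNF593-AS. Every ZNF593-AS library lay above every vector library, but the nearest libraries of the 2 groups were closer to each other than the extremes within either group. The means were 258 ± 15.1 and 311 ± 17.7 CPM (SD, n = 3). The log2 fold change was 0.27 ± 0.07 (SE), or 1.2-fold. The log2 fold change ran from 0.23 to 0.32 when single libraries were left out, but the call remained only without vector replicate 2 or ZNF593-AS replicate 3. It ended in the other 4 fits and with ZNF593-AS replicate 1 alone.

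The 2 most abundant copies of Odc1 were also higher with ZNF593-AS. Gm7993 stood at 91.0, 92.4 and 80.0 CPM with vector and at 111, 112 and 107 CPM with ZNF593-AS, a log2 fold change of 0.32 ± 0.07. Gm17709, a second processed pseudogene, was at 4.61 ± 0.253 and 6.70 ± 0.550 CPM (0.54 ± 0.11). Both had groups that did not overlap, and since they share sequence with Odc1 they are no independent measure of it. The 10 copies in the table together held 25.6% to 28.5% of the reads of the family in each library. Summed with them, Odc1 stood at 343, 375 and 339 CPM with vector and at 447, 433 and 409 CPM with ZNF593-AS, a log2 fold change of 0.29 ± 0.07, so the size of the difference was nearly the same with and without the copies.

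The antizyme inhibitor gene Azin1 (chr15:38487430-38519266, minus strand) stood at 553, 607 and 596 CPM with vector and at 602, 585 and 540 CPM with ZNF593-AS. The groups overlapped, and the log2 fold change of -0.02 ± 0.07 turned to 0.07 on the scale of library totals.

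Of the antizyme genes, Oaz1 (chr10:80826656-80829290, plus strand) stood at 59.3, 74.4 and 62.6 CPM with vector and at 64.2, 60.7 and 58.6 CPM with ZNF593-AS. Its log2 fold change was -0.10 ± 0.08, and it was 0.00 without vector replicate 2, the highest of the 6 libraries. Oaz1-ps was counted at 76.6, 67.9 and 90.7 CPM with vector and at 76.8, 85.3 and 70.6 CPM with ZNF593-AS, above Oaz1 itself in all libraries but vector replicate 2. It held 47.7% to 59.2% of the reads of the pair, so how the reads were divided sets the level given for Oaz1. The pair summed to 136, 142 and 153 CPM with vector and to 141, 146 and 129 CPM with ZNF593-AS, with a log2 fold change of -0.05 ± 0.07 and overlapping groups.

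Oaz2 (chr9:65668001-65690300, plus strand), less abundant than Oaz1, stood at 27.1, 28.5 and 28.0 CPM with vector and at 30.2, 31.3 and 32.7 CPM with ZNF593-AS. All 3 ZNF593-AS libraries were above the vector libraries. The log2 fold change was 0.17 ± 0.06 and did not pass the call rule, which it passed with library totals (0.26 ± 0.08).

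The enzymes that build spermidine and spermine showed little difference. Amd1 (chr10:40287458-40302186, minus strand), S-adenosylmethionine decarboxylase, which makes the aminopropyl donor, stood at 97.6, 100 and 95.8 CPM with vector and at 105, 99.4 and 98.4 CPM with ZNF593-AS (log2 fold change 0.04 ± 0.06). Of its 50-base stretches 78.1% also occur in other genes, mostly in Amd2, a protein-coding copy at 17.5 ± 1.10 and 17.2 ± 1.99 CPM. Summed with 6 copies it stood at 130 to 132 CPM with vector and at 130 to 139 CPM with ZNF593-AS, again with a log2 fold change of 0.04 ± 0.06.

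Srm (chr4:148591503-148594993, plus strand), spermidine synthase, stood at 51.6, 57.4 and 49.9 CPM with vector and at 57.2, 51.9 and 48.6 CPM with ZNF593-AS. The groups overlapped, with a log2 fold change of -0.01 ± 0.07, whose sign turned with library totals (0.08). Sms (chrX:157443855-157492287, minus strand), spermine synthase, stood at 59.5, 62.6 and 55.1 CPM with vector and at 65.2, 64.4 and 63.2 CPM with ZNF593-AS. Its groups did not overlap, by less than the range within the vector group, and the log2 fold change of 0.12 ± 0.06 was called only with library totals (0.21 ± 0.07). Of the 50-base stretches of Sms 17.5% also occur elsewhere, nearly all in the processed pseudogene Sms-ps (17.4%). Sms-ps is not among the counted genes and could not be added.

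Among the genes of breakdown, Sat1 (chrX:155213132-155216449, minus strand), spermidine/spermine acetyltransferase, the step that commits polyamines to export or oxidation, was the one called lower. It stood at 605, 577 and 561 CPM with vector and at 508, 509 and 442 CPM with ZNF593-AS. All 3 ZNF593-AS libraries were below the vector libraries, and replicate 3 was the lowest. The means were 581 ± 22.4 and 486 ± 38.4 CPM (SD, n = 3). The log2 fold change was -0.26 ± 0.07, or 1.19-fold lower. The log2 fold change ran from -0.29 to -0.19 when single libraries were left out, and the call remained only without vector replicate 3. With library totals it was -0.16 ± 0.07 and was not called. Copies hardly touch this value, since 2.7% of the 50-base stretches of Sat1 occur elsewhere.

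Smox (chr2:131491496-131525922, plus strand), spermine oxidase, stood at 36.7, 45.6 and 37.8 CPM with vector and at 36.6, 36.3 and 35.8 CPM with ZNF593-AS. The groups met almost exactly, and vector replicate 2 stood apart from the rest. The log2 fold change was -0.14 ± 0.08 and became -0.04 without that library. Paox (chr7:140115799-140137224, plus strand), the oxidase of acetylated polyamines, was the least abundant, at 2.98, 3.40 and 3.18 CPM with vector and at 3.78, 3.62 and 3.75 CPM with ZNF593-AS. The ZNF593-AS libraries were above the vector libraries (0.22 ± 0.12, not called). Paox overlaps Echs1 on the opposite strand over 2.9% of its exons, and with Echs1 at 21.2 CPM a part of its few counts may belong there. Of its 50-base stretches 25.2% also occur in the processed pseudogene Gm19680, which held 11.3% to 16.7% of the reads of the pair, and summed with it the log2 fold change was 0.24 ± 0.11, again not called.

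**Figure D2:**
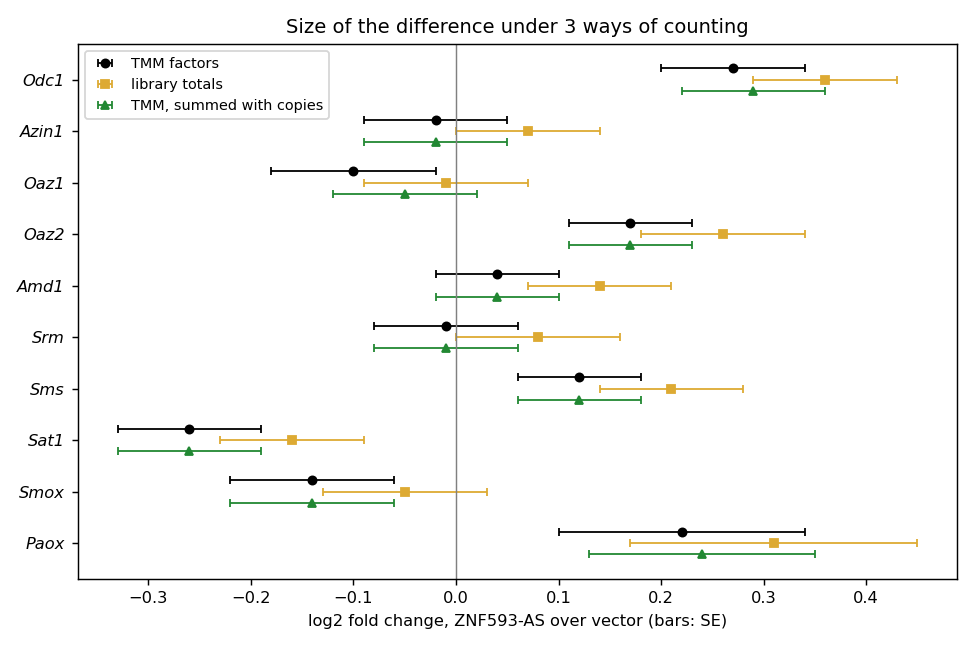
Log2 fold change of ZNF593-AS over vector (horizontal axis) with its SE for each polyamine gene, with TMM factors, with library totals, and with TMM after adding near-identical copies. Library totals shift all 10 genes to the right by a similar amount, while adding copies moves Oaz1 most, from -0.10 to -0.05.

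The scale mattered because the differences were small. Library totals in place of TMM factors moved the median of all tested genes from 0.009 to 0.10, and the calls from 368 higher and 1015 lower to 1284 higher and 811 lower. Under library totals 7 of the 10 genes had a positive log2 fold change, against 5 with TMM, and Odc1, Oaz2 and Sms were called higher and none lower. A difference of Odc1 and Sat1 from each other does not depend on that choice, since the scale cancels in a ratio within a library.

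The ratio of Odc1 to Sat1, both as CPM per kb of exon length, was 0.444, 0.520 and 0.489 in vector replicates 1 to 3 and 0.704, 0.665 and 0.721 in ZNF593-AS replicates 1 to 3. The groups were far apart relative to their spread, at 0.484 ± 0.0383 and 0.697 ± 0.0284 (SD, n = 3), a 1.44-fold difference. The ratio was formed from the 2 genes that were called, so its size is a description. Odc1 over Azin1 was 1.09, 1.11 and 1.03 with vector and 1.33, 1.30 and 1.33 with ZNF593-AS. Odc1 over the sum of Oaz1 and Oaz2 was 3.0, 2.80 and 2.93 with vector and 3.66, 3.57 and 3.39 with ZNF593-AS. In all 3 of these ratios the ZNF593-AS libraries lay above the vector libraries. They share Odc1 as numerator, so they are not independent of each other. Sat1 over the sum of Smox and Paox was 19.4 ± 2.51 with vector and 17.4 ± 1.22 with ZNF593-AS (SD, n = 3), with overlapping groups.

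Oaz2 over Oaz1 was 0.391, 0.328 and 0.382 with vector and 0.403, 0.441 and 0.477 with ZNF593-AS, without overlap but with neighbouring values. Every ratio with Oaz1 leaves out the reads placed in Oaz1-ps, so the split of reads bears on its values. Srm over Sms was 3.26, 3.45 and 3.41 with vector and 3.30, 3.03 and 2.89 with ZNF593-AS, and here the groups overlapped. The summed level per kb of the synthesis genes Odc1, Amd1, Srm and Sms was 0.780 ± 0.0499 of that of the breakdown genes Sat1, Smox and Paox with vector and 1.05 ± 0.0446 of it with ZNF593-AS (SD, n = 3). Odc1 and Sat1, the most abundant of each set per kb, dominate these sums. Reads placed in the copies of Odc1 and Amd1 are left out of them, as they are of every ratio with Odc1. The split of reads therefore bears on these values too, and on which of the synthesis and breakdown sums is the larger.

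**Figure D3:**
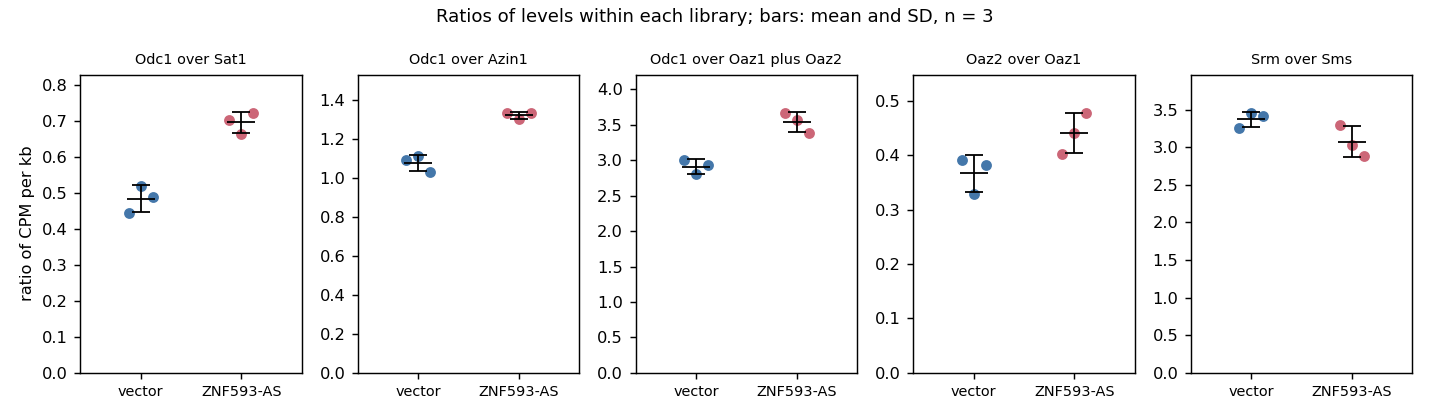
Ratio of levels per kb of exon length (vertical axes from 0) within each library for 5 pairs of polyamine genes, with group mean and SD. The groups are separate for the 3 ratios with Odc1 as numerator and overlap for Srm over Sms.

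The order of the levels over all 6 libraries was not used to choose the genes. Per kb of exon length, Sat1 was the most abundant at 192 ± 21.3 CPM per kb (SD, n = 6), above 97.9% of the tested genes. Odc1 followed at 112 ± 12.7 and Azin1 at 93.2 ± 4.47 CPM per kb. In counts without copies, Sat1 and Odc1 did not overlap over the 6 libraries. In the same counts Odc1 and Azin1 overlapped across the 6 libraries, although Odc1 was above Azin1 within each one. The copies of Odc1 held 25.6% to 28.5% of the reads of the family. Whether these ranges overlap therefore turns on how the reads were split.

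Next came Srm at 33.0 ± 2.31, Amd1 at 28.1 ± 0.894 and Oaz1 at 24.7 ± 2.28 CPM per kb. In counts without copies, Srm stood clear of its neighbours, while Amd1 and Oaz1 overlapped. Copies held 22.9% to 26.7% of the reads of the Amd1 family and 47.7% to 59.2% of those of the Oaz1 pair. The order of Srm, Amd1 and Oaz1 therefore turns on how the reads were split. Sms at 10.3 ± 0.631, Oaz2 at 9.91 ± 0.710 and Smox at 9.79 ± 0.955 CPM per kb could not be ordered beyond their spread. Paox was last at 0.703 ± 0.0657 CPM per kb, above 24.9% of the tested genes. The exon length of a gene in the table joins the exons of all its annotated transcripts, so the level of a gene that mostly makes short transcripts is understated. Among the copies, Oaz1-ps stood at 115 CPM per kb, above the 24.7 of Oaz1, and Gm7993 at 71.4 CPM per kb. Length sets much of the first gap, since Oaz1-ps has 681 bases and Oaz1 2558. In CPM the pair was closer, at 78.4 for Oaz1-ps and 65.5 for Oaz1 with vector, and at 77.6 and 61.1 with ZNF593-AS. The gap per kb is therefore no measure of how the split of reads bears on the order. The summed pair shows that bearing, at 129 to 153 CPM against 58.6 to 74.4 CPM for Oaz1 alone. Over the same 2558 bases, the place of Oaz1 after Srm and Amd1 holds only in counts without copies.

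**Figure D4:**
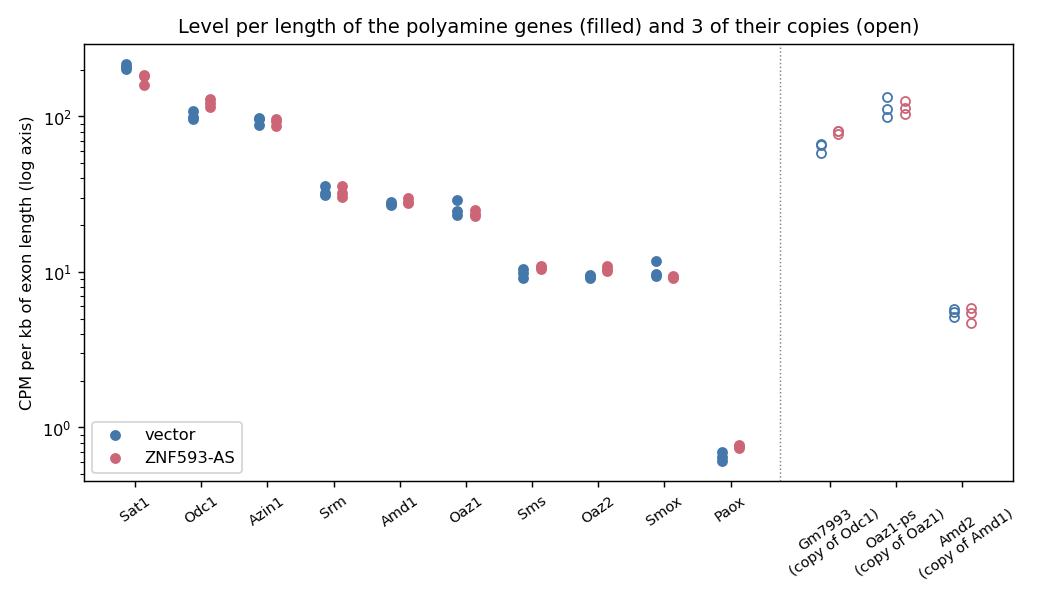
Level per kb of exon length (log axis) of the 10 polyamine genes in order of their mean (filled) and of 3 copies (open). Each point is 1 library of the vector or ZNF593-AS group, and the reads of copies are not added to the genes. Sat1, Odc1 and Azin1 lead, Sms, Oaz2 and Smox lie together near 10, and Oaz1-ps, a much shorter copy, is above Oaz1.

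The promoters of Odc1 and Sat1 are shown because these 2 genes were called, one in each direction. Both are the 250 bases before the start in RefSeq on GRCm38.p6, at chr12:17544623-17544872 on the plus strand and at chrX:155216450-155216699 on the minus strand, read 5′ to 3′ along the gene, and the capitals mark GC boxes.
Odc1: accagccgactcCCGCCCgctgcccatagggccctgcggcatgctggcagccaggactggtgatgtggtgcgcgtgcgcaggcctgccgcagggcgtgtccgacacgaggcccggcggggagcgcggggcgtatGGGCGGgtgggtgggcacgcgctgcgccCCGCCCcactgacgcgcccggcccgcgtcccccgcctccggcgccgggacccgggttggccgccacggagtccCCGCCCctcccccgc
Sat1: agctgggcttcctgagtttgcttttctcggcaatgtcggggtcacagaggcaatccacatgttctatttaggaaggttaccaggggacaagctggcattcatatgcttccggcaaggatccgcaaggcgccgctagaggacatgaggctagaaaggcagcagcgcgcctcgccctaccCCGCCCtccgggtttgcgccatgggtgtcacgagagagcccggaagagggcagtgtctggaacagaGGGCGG
Odc1 holds 4 GC boxes and Sat1 holds 2, and their G and C content is 80.0% and 59.6%, against a median of 52.4% over 32851 promoters. The search was for 5 motifs on both strands: the GC box GGGCGG, the E-box CACGTG bound by MYC and MAX, the TATA box TATAAA, the cyclic AMP response element TGACGTCA and the core of the interferon response element. Of all promoters 32.7%, 6.0%, 12.4%, 1.5% and 3.0% hold them, in that order. RefSeq gave 10 promoters for 8 of the 10 genes. A GC box was found in 8 of these 10 promoters, the E-box in 1 of Sms, and none of the other 3 motifs in any. Paox and Sms each gave more than 1 promoter, and the windows of Paox largely overlap. By gene, a GC box was found in Amd1, Oaz2, Odc1, Paox, Sat1, Smox and Sms, and not in Oaz1. A missing match says only that the letters are not in this window.

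Genes around the pathway were taken from 7 lists of 85 genes in all, of which 70 were tested. 3 were called higher and 2 lower, or 7.14%, against 8.40% of all tested genes, and their median log2 fold change was 0.03. With library totals 10 were called higher. The lists were chosen with earlier results of these data known in part, so the calls and p-values of their genes are a description as well.

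Of 18 tested genes of arginine and ornithine supply, 1 was lower and 17 were not called (median 0.04). Nos2, the inducible nitric oxide synthase, which competes with arginase for arginine, fell from 15.3, 15.6 and 15.3 CPM with vector to 1.92, 2.20 and 3.2 CPM with ZNF593-AS. All 3 ZNF593-AS libraries were far below the vector libraries, with a log2 fold change of -2.68 ± 0.14 (edgeR adjusted p = 1.15e-09) that was called without any single library. The ornithine-forming genes were not called: Arg1 was at 1.80 CPM over the 6 libraries and Arg2 at 0.141 CPM, with log2 fold changes of 0.12 ± 0.21 and 0.02 ± 0.56.

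Of 18 tested genes of the methionine cycle and methylthioadenosine salvage, 1 was higher (median 0.01). Mat2a, which makes the S-adenosylmethionine that Amd1 acts on, stood at 33.9, 34.1 and 39.9 CPM with vector and at 43.8, 44.7 and 41.1 CPM with ZNF593-AS. The groups did not overlap (0.26 ± 0.07, edgeR adjusted p = 0.0339). Leaving out replicate 1 or 2 of either group ended the call. Mtap, which clears the methylthioadenosine released by Srm and Sms, was at 113 CPM with a log2 fold change of 0.10 ± 0.06, not called.

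Of 7 tested amine oxidases and aldehyde dehydrogenases of polyamine breakdown, 1 was higher (median 0.07). Aldh9a1, an aldehyde dehydrogenase that acts on aminoaldehydes, rose from 20, 21.6 and 21.7 CPM to 25.5, 26.6 and 25.2 CPM (0.29 ± 0.07, edgeR adjusted p = 0.0128). It was not called when vector replicate 1 or ZNF593-AS replicate 2 was left out.

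In 3 lists edgeR, DESeq2 and limma-voom called 0 genes. In the hypusination of eIF5A, a modification of a translation factor that uses spermidine, all 4 genes were tested and 0 had an unadjusted p under 0.05 in edgeR. Eif5a itself was at 616 ± 23.3 and 582 ± 22.1 CPM (SD, n = 3; -0.08 ± 0.07), Eif5a2 at 1.65 ± 0.122 and 1.93 ± 0.248 CPM, and the modifying enzymes Dhps and Dohh had log2 fold changes of 0.09 ± 0.08 and -0.03 ± 0.08. Of 5 tested paralogs and side enzymes 0 had an unadjusted p under 0.05, and Sat2, a relative of Sat1, had the smallest p (0.48 ± 0.31). Of 7 tested transport genes 1 had an unadjusted p under 0.05, Cav1 (22.9 ± 1.59 and 26.6 ± 1.54 CPM, 0.22 ± 0.07, edgeR adjusted p = 0.0915), which was called with library totals (0.31).

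Odc1 is a textbook target of MYC, so the MYC and MAX network was listed as well. Of 11 tested genes 1 was higher and 1 lower (median 0.03). Myc stood at 141, 131 and 144 CPM with vector and at 146, 151 and 129 CPM with ZNF593-AS, with overlapping groups (0.04 ± 0.07, edgeR adjusted p = 0.829), and Max at 75.6 ± 4.54 and 70.9 ± 1.58 CPM (-0.09 ± 0.06). Mxd1, a MAX partner that opposes MYC, fell from 13.2, 13.2 and 11.8 CPM to 3.33, 3.47 and 3.75 CPM. Its log2 fold change of -1.86 ± 0.10 (edgeR adjusted p = 4.58e-10) was called without any single library.

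Mxi1, a partner of MAX of the same family, rose from 82.2, 74.7 and 81.6 CPM to 90, 95.4 and 96.6 CPM (0.24 ± 0.06, edgeR adjusted p = 0.0211). It was not called when replicate 2 of either group or ZNF593-AS replicate 3 was left out, and it overlaps Gm10197 on the opposite strand over 3.5% of its exons. Of the other tested members of this family, Mxd3 had a log2 fold change of 0.03 ± 0.15 and Mxd4 of 0.44 ± 0.17, neither called.

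**Figure D5:**
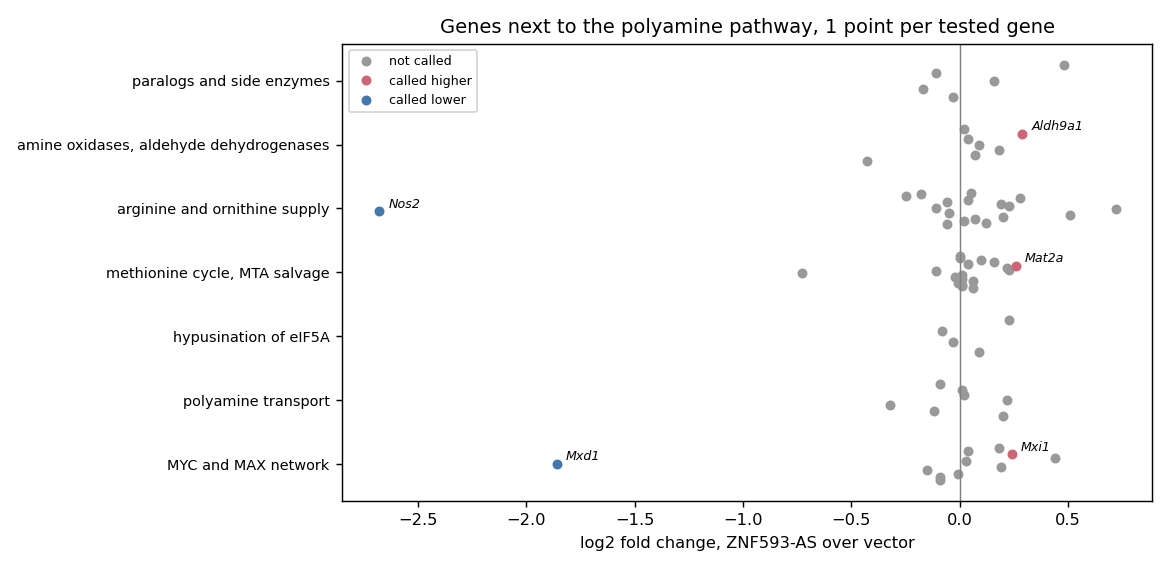
Log2 fold change of ZNF593-AS over vector (horizontal axis) for each tested gene of 7 lists around the polyamine pathway, coloured by whether edgeR called it. Nos2 and Mxd1 lie far to the left at -2.68 and -1.86, while the 3 genes called higher lie between 0.24 and 0.29.

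The 5 genes whose log2 CPM over the 6 libraries was most like that of Odc1, among 8288 genes that averaged 10 CPM or more, were Rnf11 (r = 0.980), Pex2 (0.978), Rpp14 (0.977), Naa10 (0.976) and Ado (0.976). Rnf11, a RING finger gene, stood at 116, 119 and 115 CPM with vector and at 138, 135 and 128 CPM with ZNF593-AS. All 5 were higher in every ZNF593-AS library than in any vector library. Group means were not removed, so r largely follows the difference between the groups with which Odc1 was chosen. With 6 points that share libraries and scale factors, 126 genes had r above 0.9, and the likeness is a description only.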

How the data were processed

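Per the file headers, the authors deposited raw read counts for each gene in 6 libraries beside its exon length. The submitters' processing notes name CASAVA, cutadapt 1.2.1, Bowtie2, TopHat2 and GRCm38, without roles; no source used here gives the counting tool, its strand setting or its treatment of reads with several matches. Counts of 2 were commoner than counts of 1 (2160 to 2359 against 365 to 492 genes per library), as when both mates of a pair are counted.

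Low genes were removed with filterByExpr, at a minimum count of 10 and a minimum total of 15. Libraries were scaled by TMM and tested with edgeR 4.0.16 in R 4.3.3 (robust quasi-likelihood test with Benjamini-Hochberg adjusted p-values over 16473 genes). The biological coefficient of variation was 7.69%. SDs are over libraries, and each SE was obtained by dividing the absolute log2 fold change by the square root of F. DESeq2 1.42.0 and limma 3.58.1 (voom), other filters and scales, halved counts, left-out libraries and a replicate block were alternatives. The procedure was tested on simulated data. No pair of libraries agreed within counting noise: after halving the counts, chi-square per gene was at least 10.8 in every pair. This cannot tell separate cultures from repeated preparations of the same RNA.

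The polyamine genes and the lists were chosen with earlier results of these data known. From each list up to 3 called genes per direction by smallest p were named, or, for a list without a call, the gene of lowest p, with Myc, Max and all genes of a list of 4. Arg1, Arg2, Mtap, Mxd3, Mxd4 and the copies were named after their values were seen. Near-identical copies are annotated pseudogenes, and Amd2, that hold at least 1% of a gene's 50-base stretches in GENCODE M21. Of the list symbols, Pycr3 was matched to Pycrl through RefSeq synonyms.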

Additional observations from a re-analysis of the deposited data

How the results depend on the processing

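Across 15 alternatives the 10 genes gave 150 log2 fold changes, of which 125 kept their sign and their side of the threshold. Leaving out single libraries gave 138 to 394 genes called higher over the whole table (368 with all 6), 0 to 1 polyamine genes called higher and 0 to 1 lower, 0 to 3 genes of the neighbouring lists called higher, and 8 to 10 polyamine genes at their place in the order of levels. With library totals, 1284 genes were called higher over the whole table, 3 polyamine genes higher and 0 lower, 10 genes of the neighbouring lists higher, and the median of the polyamine genes was 0.108. Without a filter 561 genes were called higher. With ZNF593-AS replicate 1 alone, where the treated library is assumed to vary like the vector libraries, 45 genes were called higher and 630 lower, 0 polyamine genes in either direction and 0 neighbouring genes higher, and the median was 0.108; the cause of these shifts was not tested beyond the smaller number of samples. Signs turned only in genes near 0. Azin1 was at 0.065 with library totals, 0.042 with ZNF593-AS replicate 1 alone and from -0.062 to 0.021 without single libraries, Srm at 0.082, 0.113 and from -0.074 to 0.053 in the same settings and at 0.001 without a filter, and Oaz1 from -0.161 to 0.004 without single libraries. DESeq2, limma-voom, the filter at 1 CPM and halved counts changed no polyamine call, nor did adding the copies, an alternative chosen after seeing the data. The order of levels was not formed again with the copies added.

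The replicate numbers gave no sign of pairing: the deviations of same-numbered libraries had correlations of -0.0288, -0.0296 and 0.0492, and not every library correlated best with its own number. With the replicate block 334 genes were called higher and 997 lower, and 1 polyamine gene in each direction.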
